A study of Rattus norvegicus with 20 samples.

Results

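Vomeronasal and taste receptor genes were examined on 20 promoter tiling arrays that measured binding of p65, a subunit of the transcription factor NF-κB, in rat liver. The genes were chosen by name, as every listed gene whose name began with Vom1r, Vom2r, V1r, V2r, Tas1r or Tas2r. Of 14368 genes named in the deposited peak lists, 182 had such a name. They comprised 94 type 1 vomeronasal receptors (V1R), 64 type 2 vomeronasal receptors (V2R), 22 bitter taste receptors (T2R) and 2 members of the sweet and umami family (T1R), Tas1r1 and Tas1r3. A gene could be named only if a peak had been listed for it on at least 1 array, and 35 of the 182 had peaks on arrays of 6h alone, as did 5.21% of all named genes. The listed starts were assigned to 178 tiled promoters, all of which were tested among 13305, and V1rd15 was listed at 2 of them. Of these, 5 promoters held a pair of receptor genes (Vom2r17 with Vom2r18, V1re18 with V1re19, Tas2r108 with Tas2r137, Tas2r135 with Tas2r143 and Tas2r105 with Tas2r114), and the promoter of Tas1r3 also held Cpsf3l and Gltpd1.

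The livers came from male wild-type Sprague Dawley rats of 8 to 10 weeks that had received a liquid diet for 5 weeks, with ethanol giving 36% of the calories or with carbohydrate in its place in pair-fed littermates. All rats then underwent 70% partial hepatectomy, which removes most of the liver and is followed by regrowth. The lobes removed at surgery gave the 0h samples, and the remnant lobes gave the 1h or the 6h samples, so that time and liver lobe cannot be told apart. There were 3 ethanol and 3 carbohydrate arrays at 0h, 3 and 3 at 1h, and 4 and 4 at 6h. Whole liver holds several cell types, and a change in the number of cells of a type cannot be told apart from a change of binding within cells. Promoter signal is the mean log2 ratio of all probes of a tiled region within 5000 bp of a listed start, turned so that listed peaks are positive, and centred on each array's median. The labels name both input DNA and IgG-precipitated DNA as the reference channel, so the nature of the reference is unsettled.

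By their identifiers the 20 arrays fell into 4 runs, lay on 11 slides and came from 16 animals, 4 of which gave 2 arrays. One run held 5 of the 0h arrays, a second held ethanol 0h replicate 2 with the first 1h replicate of each diet on 1 slide, another held 11 arrays of 1h and 6h, and the last held carbohydrate 6h replicate 1 alone. Ethanol 0h replicate 2 stood apart from the other 0h arrays and lay with the 1h arrays in the values below. Between 2874 and 9387 peaks were listed per array. Promoter signals of array pairs correlated between −0.51 and 0.91, with the same dye orientation throughout per the labels. The direction used here rests on the listed peaks.

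Vomeronasal receptors are receptors for pheromones and related chemical cues in sensory neurons of the vomeronasal organ. V1Rs are encoded by short genes and signal through the G protein Gnai2, while V2Rs carry a long extracellular domain and signal with Gnao1. T2Rs detect bitter compounds in taste cells, and Tas1r1 and Tas1r3 pair with each other in the umami receptor. These genes are expressed in chemosensory cells and are not known for a part in liver. In the rat they lie in clusters, here 92 genes on chromosome 1 and 60 on chromosome 4. The genes on chromosome 4 were 35 V1Rs, 20 T2Rs and 5 V2Rs.

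The promoter windows of 6 receptors are printed because they show both low and high GC content and both a rise and none between 1h and 6h. Vom2r73 and Vom2r5 had among the largest differences between 6h and 1h, V1rc6 (now Vom1r70) and Tas2r107 stand for the V1Rs and the T2Rs, and Tas1r1 and Tas1r3 did not rise. Each window holds 300 bases of RefSeq (build GRCr8) around the annotated gene start, most of them upstream, and capitals mark CG dinucleotides. The sources used here do not name the build of the arrays, and whether a window coincides exactly with tiled sequence was not tested. At Vom2r73 all probes lay downstream of the listed start, while most of the printed window lies upstream of the annotated start.
Vom2r73: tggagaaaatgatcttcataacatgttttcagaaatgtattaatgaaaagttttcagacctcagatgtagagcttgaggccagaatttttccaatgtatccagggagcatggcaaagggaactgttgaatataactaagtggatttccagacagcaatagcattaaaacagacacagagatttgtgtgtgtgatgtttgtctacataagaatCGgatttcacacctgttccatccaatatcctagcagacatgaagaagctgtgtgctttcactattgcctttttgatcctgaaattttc
Vom2r5: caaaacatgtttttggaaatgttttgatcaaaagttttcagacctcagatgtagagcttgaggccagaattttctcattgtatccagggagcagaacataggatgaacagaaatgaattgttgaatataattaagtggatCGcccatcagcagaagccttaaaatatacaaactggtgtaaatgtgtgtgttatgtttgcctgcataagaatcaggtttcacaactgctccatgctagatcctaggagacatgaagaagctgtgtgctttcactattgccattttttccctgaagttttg
V1rc6: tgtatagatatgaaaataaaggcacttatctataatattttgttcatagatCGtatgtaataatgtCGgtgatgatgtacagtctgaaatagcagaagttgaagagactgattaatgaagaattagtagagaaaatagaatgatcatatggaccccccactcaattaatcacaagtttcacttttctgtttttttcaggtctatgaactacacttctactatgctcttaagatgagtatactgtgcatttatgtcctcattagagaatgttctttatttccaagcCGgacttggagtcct
Tas2r107: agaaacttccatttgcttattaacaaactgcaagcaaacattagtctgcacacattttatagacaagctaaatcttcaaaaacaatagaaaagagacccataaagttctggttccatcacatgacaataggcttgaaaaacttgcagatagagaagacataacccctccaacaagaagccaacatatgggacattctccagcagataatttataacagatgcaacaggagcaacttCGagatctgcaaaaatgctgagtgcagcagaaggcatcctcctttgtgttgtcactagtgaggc
Tas1r1: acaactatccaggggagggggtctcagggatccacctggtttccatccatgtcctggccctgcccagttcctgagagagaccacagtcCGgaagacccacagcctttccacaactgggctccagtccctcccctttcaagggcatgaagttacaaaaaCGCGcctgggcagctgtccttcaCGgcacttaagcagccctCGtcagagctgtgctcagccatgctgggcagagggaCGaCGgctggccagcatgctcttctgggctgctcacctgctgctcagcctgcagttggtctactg
Tas1r3: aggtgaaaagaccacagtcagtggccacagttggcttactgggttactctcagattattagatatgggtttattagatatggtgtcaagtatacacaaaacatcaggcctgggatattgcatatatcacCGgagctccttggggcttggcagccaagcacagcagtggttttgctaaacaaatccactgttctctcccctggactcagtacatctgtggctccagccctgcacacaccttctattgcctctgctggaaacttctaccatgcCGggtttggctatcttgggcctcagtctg
The windows lie at chr14:959395-959694 (minus strand) for Vom2r73, at chr1:2973495-2973794 (plus strand) for Vom2r5, at chr4:87777745-87778044 (plus strand) for V1rc6, at chr4:167031958-167032257 (minus strand) for Tas2r107, at chr5:167828241-167828540 (minus strand) for Tas1r1 and at chr5:171754944-171755243 (minus strand) for Tas1r3. GC content was 37.3% in the window of Vom2r73, 38.0% in that of Vom2r5, 33.3% in that of V1rc6 and 39.3% in that of Tas2r107, against 60% for Tas1r1 and 48.7% for Tas1r3. Vom2r73 and Vom2r5, on different chromosomes, shared an unbroken run of 44 bases in these windows. Each shared a run of at most 8 bases with the window of Vom2r2, another V2R. Whether probes tell related receptor genes apart was not tested, since probe sequences were not used here.

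A RefSeq window was found for 59 of 64 V2Rs, 21 of 22 T2Rs and both T1Rs, but for 48 of 94 V1Rs. Base composition was therefore compared for V2Rs and T2Rs, and for the receptors as a whole such a comparison is void, since 71.4% had a window. Median GC content was 38.7% in V2R windows and 39.0% in T2R windows, against 57.7% over the 11598 windows of all listed genes. The median number of CG dinucleotides was 1 for V2Rs and 2 for T2Rs, against 16 for all listed genes. The κB consensus motif, searched on both strands, was found in 0 of 59 V2R windows, 0 of 21 T2R windows, 0 of the 2 T1R windows and 0 of the 48 V1R windows found. It was present in 4.44% of all windows, so an absence from windows this few and this short says nothing about the factor. The sequence TATAAA, on either strand, was in 27.1% of V2R windows and 23.8% of T2R windows, against 12.3% of all. It was in 52.1% of the 48 V1R windows found and in 38% of 1000 olfactory receptor windows, so it is not particular to V2Rs and T2Rs.

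Receptor genes had peaks mainly at 6h, and few at 1h. Since any listed peak brought a gene in, and 35 genes came in through 6h alone, these numbers partly restate how the genes were found. At 0h a peak was listed for 38, 11 and 91 receptor genes on the ethanol arrays and for 47, 25 and 112 on the carbohydrate arrays. At 1h the numbers were 9, 6 and 7 on the ethanol arrays and 11, 9 and 5 on the carbohydrate arrays. At 6h they were 96, 138, 160 and 92 on the ethanol arrays and 126, 103, 123 and 119 on the carbohydrate arrays. All 8 arrays of 6h lay above all 6 arrays of 1h, while the 0h arrays spread over both ranges. The numbers at 1h were low although these arrays held the most peaks in all in ethanol-fed rats, 5916 to 9387, against 3602 to 5605 on the ethanol arrays of 6h. In carbohydrate-fed rats the totals overlapped, with 3722 to 6704 peaks at 6h and 4881 to 6052 at 1h. Receptors accounted for 3.98% ± 1.58 of the peaks at 6h and 0.129% ± 0.023 at 1h in ethanol-fed rats (SD, n = 4 and 3), and for 2.89% ± 1.18 at 6h and 0.171% ± 0.073 at 1h in carbohydrate-fed rats (SD, n = 4 and 3).

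**Figure D1:**
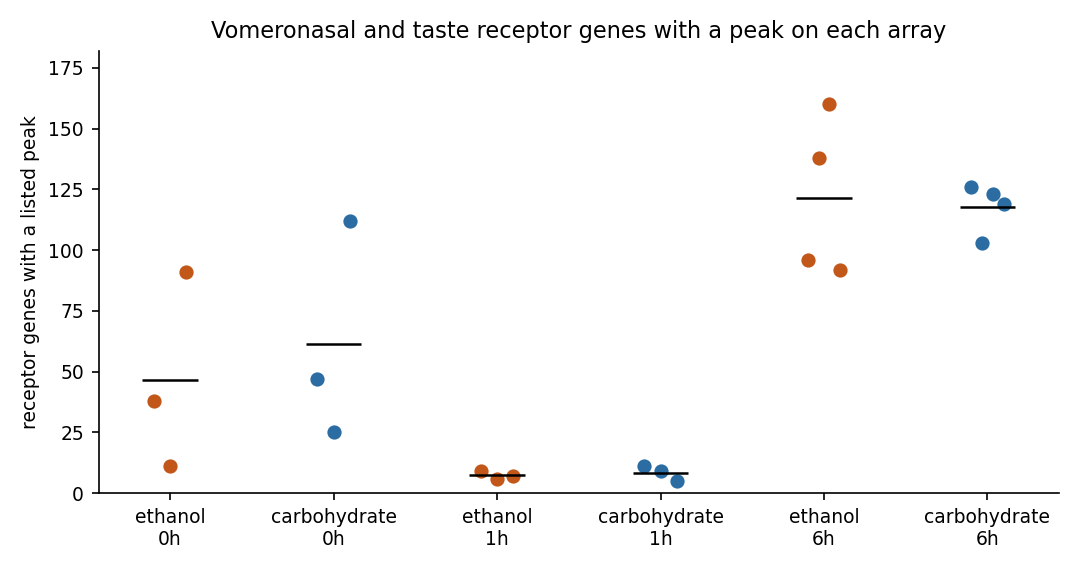
Number of vomeronasal and taste receptor genes, of 182, with a listed peak on each array (vertical axis), by diet and time (horizontal axis); points are arrays and bars are group means. The 1h arrays of both diets lie between 5 and 11 genes and the 6h arrays between 92 and 160.

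With a peak on at least 2 arrays of a group as the rule, 31 receptor genes were bound in ethanol 0h samples, where 19.7% of all listed genes were bound, and 44 in carbohydrate 0h samples, where 20.6% were. At 1h the rule took 3 receptor genes in ethanol-fed rats, against 41.6% of all genes, and 4 in carbohydrate-fed rats, against 28.8%. At 6h it took 148 receptor genes in ethanol-fed rats, against 30.2% of all genes, and 134 in carbohydrate-fed rats, against 39.6%. The groups of 6h have 4 arrays and the others 3, so the rule is easier to meet at 6h. The 148 receptors bound at 6h in ethanol-fed rats were 84 V1Rs, 48 V2Rs, 15 T2Rs and 1 T1R. With the authors' false discovery rate (FDR) at most 0.05, 98 receptor genes were bound at 6h in ethanol-fed rats, where 10.6% of all genes did, and 66 in carbohydrate-fed rats, where 14.3% did. At 1h 1 gene met that rule in ethanol-fed rats, against 20.0% of all genes, and 2 genes in carbohydrate-fed rats, against 10.5%.

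Over all arrays the median distance from peak to start was 619 bp for receptors and 1185 bp for all genes. Within 500 bp lay 40.5% of receptor peaks, against 19.0% of all. Here a peak listed for several genes was counted once per gene. Counted so, the authors' peak score had a median of 0.508 over 1356 pairs of a receptor gene and a peak at 6h. It was 0.536 over 60 pairs at 1h, 0.417 over 390 at 0h and 0.497 over the pairs of all genes. In the 60 pairs of 1h the peak lay at a median of 1988.5 bp from the start, and in the 1356 of 6h at 580 bp. These differences were not tested.

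The genes with peaks on the most arrays were V1rj2 and Vom2r56, with 15 of 20 each, and V1rc6, with 14. Then came V1re15, V1re16, V1re17, Vom2r12 and Tas1r3, with 13 each. Of these 8 genes, 7 had a peak on every array of 6h, and Tas1r3 had one on 3 of 4 ethanol arrays and 4 of 4 carbohydrate arrays of 6h. Tas1r3 was also the 1 gene of the 8 with a peak on every 1h array of both diets and on no 0h array. The median receptor gene had a peak on 7 arrays, and 6 had one on a single array.

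The promoter signal, measured on the same arrays as the peaks that named the genes, gave the same order of the times. The median signal of the 178 receptor promoters on the ethanol arrays was 0.01, −0.29 and 0.11 at 0h, −0.23, −0.20 and −0.20 at 1h, and 0.10, 0.19, 0.20 and 0.07 at 6h. On the carbohydrate arrays it was 0.03, −0.02 and 0.13 at 0h, −0.24, −0.23 and −0.23 at 1h, and 0.20, 0.01, 0.06 and 0.07 at 6h. The 6h arrays all lay above the 1h arrays, and the value of −0.29 belonged to ethanol 0h replicate 2. The median of all promoters lay between −0.01 and 0.04 on every array. At 1h between 4 and 13 of the 178 receptor promoters were above 0 on the ethanol arrays and between 4 and 22 on the carbohydrate arrays, while from 49.2% to 60.3% of all promoters were. On ethanol 6h replicate 3 there were 174 above 0. The negative values at 1h are values relative to the array's median probe, and do not give an amount of bound p65.

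**Figure D2:**
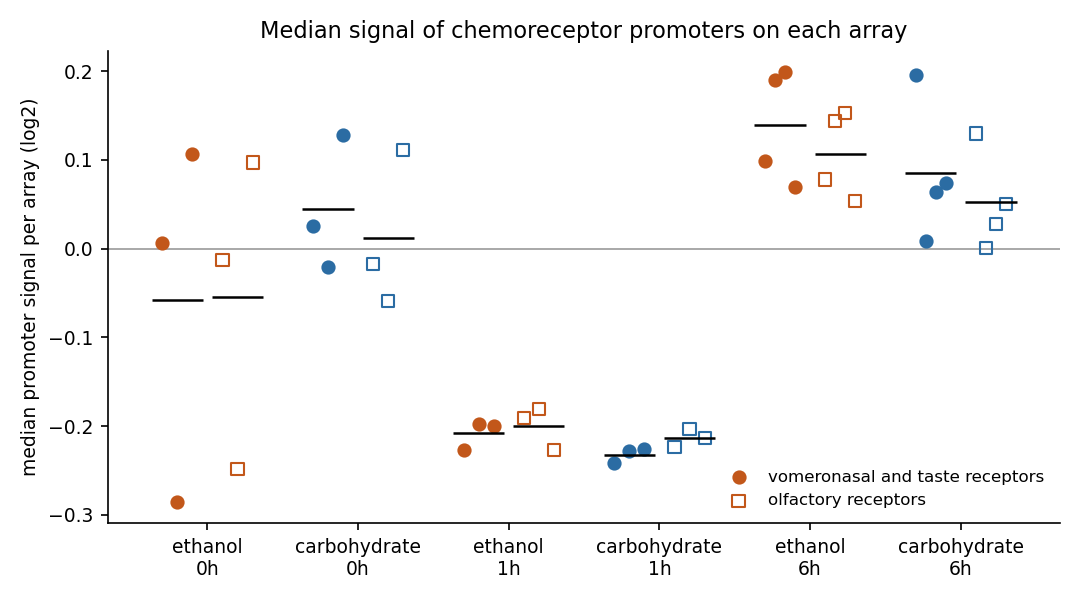
Median promoter signal (log2 ratio, centred on each array's median) of 178 vomeronasal and taste receptor promoters (filled circles) and 1163 olfactory receptor promoters (open squares) on each array, by diet and time; black bars are group means. In both diets and both sets the group means are lowest at 1h and highest at 6h, and ethanol 0h replicate 2, at −0.29 for the vomeronasal and taste receptors, lies with the 1h arrays.

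Between 6h and 1h nearly all receptor promoters rose in both diets. Genes were named through peaks listed on these arrays, 35 of 182 through arrays of 6h alone. The counts, family shares and rankings below therefore partly restate how the genes were found, and were not repeated without those 35. In ethanol-fed rats 171 of 178 rose and 1 fell, against 20.7% of all promoters that rose and 27.1% that fell (limma, Benjamini-Hochberg adjusted p under 0.05 over 13305 promoters). The median difference, 6h minus 1h, was 0.35 for receptors and −0.04 for all promoters. In carbohydrate-fed rats 157 of 178 rose and 0 fell, against 18.6% and 17.9% of all promoters, with a median difference of 0.33 for receptors and −0.01 for all promoters. At an unadjusted p under 0.05, 174 receptor promoters differed in ethanol-fed rats, against 55.1% of all promoters, and 161 in carbohydrate-fed rats, against 48.1%. A 500 bp window, the stretch of highest mean signal over all arrays, was also used in place of the whole promoter. With it 98 rose and 0 fell in ethanol-fed rats. The arrays of 6h lay wholly above those of 1h at 165 receptor promoters in ethanol-fed rats, against 21.4% of all promoters, and at 155 in carbohydrate-fed rats, against 23.3%. These comparisons share no array between the diets. The 155 promoters that rose in both diets were 90.6% of the ethanol list and 98.7% of the carbohydrate list, while over all promoters the 1860 shared were 67.4% and 75.2% of the lists.

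The rise spanned the families except the T1Rs. In ethanol-fed rats 90 of 94 V1R, 63 of 63 V2R, 18 of 19 T2R and 0 of 2 T1R promoters rose, with median differences of 0.34, 0.38, 0.29 and −0.13. In carbohydrate-fed rats 86 of 94 V1R, 55 of 63 V2R, 16 of 19 T2R and 0 of 2 T1R promoters rose, with medians of 0.34, 0.33, 0.27 and −0.04. Among V1Rs, grouped by the letter in their names, group c rose at 24 of 24 promoters in ethanol-fed and 23 of 24 in carbohydrate-fed rats, and group e at 21 of 21 and 20 of 21. Group j had the fewest calls, with 1 of 3 in each diet, at V1rj2. Its other members had differences of 0.21 (V1rj4) and 0.15 (V1rj6) in ethanol-fed rats, with adjusted p = 0.177 and 0.362. The promoters that rose in neither diet were those of V1rj4, V1rj6, V1rg4, Tas1r1 and Tas1r3.

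**Figure D3:**
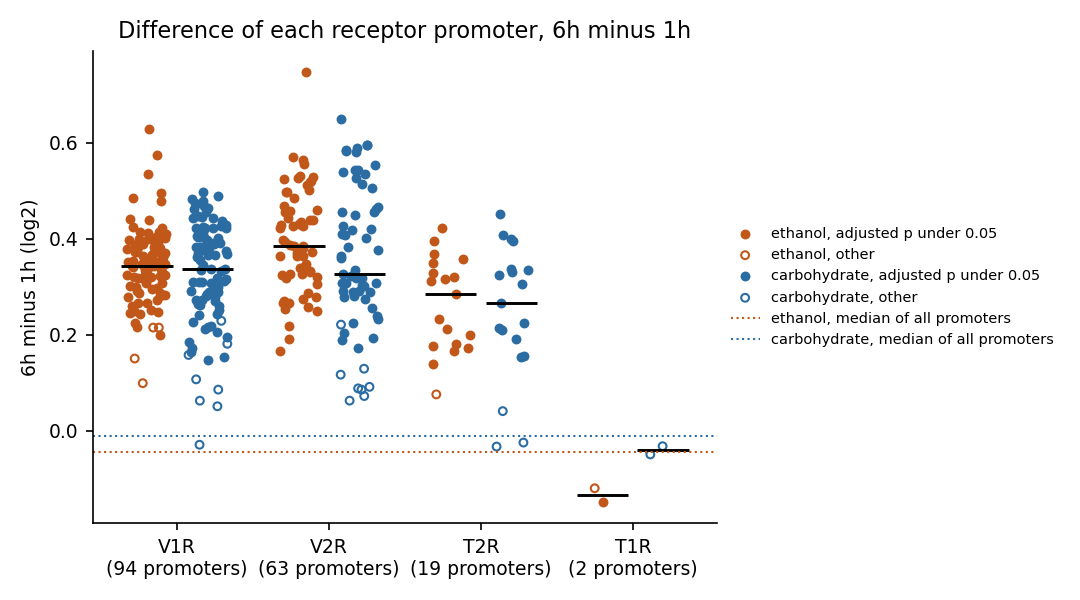
Difference of promoter signal, 6h minus 1h (log2), for each V1R, V2R, T2R and T1R promoter in ethanol-fed (orange) and carbohydrate-fed rats (blue); filled points had an adjusted p under 0.05 in limma, bars are family medians and dotted lines are the medians of all promoters. The V1R, V2R and T2R points lie mostly between 0.1 and 0.6, and both T1R promoters lie below 0 in both diets.

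V2Rs made up 7 of the 10 largest rises in ethanol-fed rats and all 10 in carbohydrate-fed rats. In ethanol-fed rats the 10 largest rises were at Vom2r73 (0.75), V1re21 (0.63), V1re23 (0.58), Vom2r6 (0.57), Vom2r3 (0.56), Vom2r5 (0.55), V1re7 (0.53), Vom2r67 (0.53), Vom2r2 (0.53) and Vom2r13 (0.53). Their adjusted p-values lay between 4.91e-05 for Vom2r6 and 0.00131 for Vom2r2. In carbohydrate-fed rats they were at Vom2r2 (0.65), Vom2r60 (0.60), Vom2r4 (0.60), Vom2r3 (0.59), Vom2r73 (0.59), Vom2r5 (0.58), Vom2r12 (0.58), Vom2r80 (0.55), Vom2r13 (0.54) and Vom2r6 (0.54). There the adjusted p-values lay between 0.000295 for Vom2r5, Vom2r6 and Vom2r12 and 0.00203 for Vom2r73. Vom2r2, Vom2r3, Vom2r4, Vom2r5 and Vom2r6 are neighbours near the start of chromosome 1.

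Vom2r73, a V2R on chromosome 14 with a listed start at 1310565, had a signal of 0.19, 0.49, 0.51 and 0.18 on the ethanol arrays of 6h and −0.47, −0.43 and −0.32 on those of 1h. On the carbohydrate arrays it had 0.31, 0.09, 0.06 and 0.17 at 6h and −0.57, −0.37 and −0.34 at 1h. The times did not overlap in either diet, with a difference of 0.75 ± 0.12 (SE) in ethanol-fed and 0.59 ± 0.12 in carbohydrate-fed rats. Its 0h values were −0.24, −0.58 and 0.08 in ethanol-fed and −0.21, −0.15 and 0.13 in carbohydrate-fed rats. In ethanol-fed rats 0h overlapped 1h and lay below 6h, and in carbohydrate-fed rats it overlapped 6h and lay above 1h. This promoter rested on 8 probes, from 1309588 to 1310463. All of them lay downstream of the start, since the gene is on the minus strand. A peak was listed there on 3 arrays, 2 of ethanol 6h and 1 of carbohydrate 0h, and on 0 arrays of carbohydrate 6h.

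Vom2r5, with a start at 1234907 on chromosome 1 and 26 probes, had 0.35, 0.44, 0.44 and 0.30 on the ethanol arrays of 6h and −0.23, −0.26 and −0.04 on those of 1h. In carbohydrate-fed rats it had 0.51, 0.29, 0.45 and 0.37 at 6h and −0.25, −0.12 and −0.16 at 1h. No 6h value came near a 1h value, and the differences were 0.55 ± 0.07 and 0.58 ± 0.07 (SE; adjusted p = 5.59e-05 and 0.000295, limma). A peak was listed at Vom2r5 on all 8 arrays of 6h, on none of 1h and on 1 of 0h. Vom2r2, whose start is at 760657, reached the highest levels, with 0.53, 0.55, 0.63 and 0.55 on the ethanol arrays and 0.62, 0.52, 0.65 and 0.56 on the carbohydrate arrays of 6h, but it rested on 6 probes.

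V1rc6, with a start at 86172616 on chromosome 4 and 53 probes, had 0.24, 0.30, 0.36 and 0.24 on the ethanol arrays of 6h and −0.05, −0.03 and 0.13 on those of 1h. On the carbohydrate arrays it had 0.38, 0.30, 0.36 and 0.41 at 6h and −0.19, 0.01 and −0.07 at 1h. It was among the few receptors that also rose against 0h in both diets, by 0.26 ± 0.06 each (SE; adjusted p = 0.0488 in ethanol-fed and 0.0126 in carbohydrate-fed rats, limma). Vom2r56, with a start at 18216488 on chromosome 7, had a peak on 15 arrays but did not differ beyond the threshold in carbohydrate-fed rats. There it had 0.29, 0.21, 0.27 and 0.31 at 6h and 0.32, 0.21 and 0.06 at 1h, and these values overlapped. In ethanol-fed rats it had 0.36, 0.28, 0.28 and 0.25 at 6h and 0.14, −0.16 and −0.14 at 1h, a difference of 0.34 ± 0.07 (SE; adjusted p = 0.00090, limma). The difference between the diets in this change was 0.27 ± 0.10 (SE), with adjusted p = 0.303, so it did not pass the test.

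The T1R genes followed another course. Tas1r1, the subunit specific to the umami receptor, with a start at 169268006 on chromosome 5, had −0.03, −0.03, 0.01 and −0.02 on the ethanol arrays of 6h and 0.04, 0.13 and 0.22 on those of 1h. It was the 1 receptor promoter that fell, with a difference of −0.15 ± 0.04 (SE; adjusted p = 0.00859, limma), but the adjusted p was 0.0668 without ethanol 1h replicate 3, and with a 500 bp window the difference was −0.085 with adjusted p = 0.715. In carbohydrate-fed rats it had −0.04, 0.02, −0.0012 and 0.05 at 6h and 0.01, 0.04 and 0.13 at 1h, which overlapped. Tas1r3, the subunit shared by the sweet and the umami receptor, with a start at 172721704 on chromosome 5, had 0.08, 0.11, 0.18 and 0.12 on the ethanol arrays of 6h and 0.10, 0.29 and 0.34 on those of 1h. On the carbohydrate arrays it had 0.22, 0.23, 0.17 and 0.17 at 6h and 0.10, 0.32 and 0.27 at 1h, and the times overlapped in both diets. Its 0h values were 0.03, 0.03 and −0.03 in ethanol-fed and 0.01, −0.04 and 0.01 in carbohydrate-fed rats, below every value of 1h. Against 0h it rose at 1h by 0.23 ± 0.06 in ethanol-fed and 0.24 ± 0.06 in carbohydrate-fed rats (SE; adjusted p = 0.0396 and 0.00816, limma). With a 500 bp window neither passed (adjusted p = 0.228 in ethanol-fed and 0.412 in carbohydrate-fed rats, limma), nor with array run as a term (0.856 and 0.833). The 115 probes of this promoter also cover Cpsf3l and Gltpd1, so its signal cannot be assigned to Tas1r3.

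The rise between 6h and 1h was as wide within a run and within a slide. Restricted to the run that held 11 arrays, the rise passed at 171 receptor promoters of ethanol-fed rats, with 2 that fell, and at 161 of carbohydrate-fed rats. On 1 slide of that run, ethanol 6h replicate 1 was above ethanol 1h replicate 3 at 174 of 178 receptor promoters, with a median difference of 0.32, while it was above at 44.2% of all promoters. On another, carbohydrate 6h replicate 2 was above carbohydrate 1h replicate 2 at 165 of 178, with a median difference of 0.25, against 52.2% of all promoters.

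The difference extended over the whole tiled stretch. In ethanol-fed rats the mean probe signal of receptors from −4500 to −4000 bp of the start was 0.05 at 6h and −0.27 at 1h, and in the first 500 bp downstream it was 0.29 at 6h and −0.06 at 1h. In carbohydrate-fed rats the upstream values were −0.02 at 6h and −0.27 at 1h, and the downstream ones 0.32 at 6h and −0.11 at 1h. Signal was thus higher just after the start than upstream at both times. The step lay in different places by family. V2R signal at 6h was already 0.28 in ethanol-fed and 0.29 in carbohydrate-fed rats in the last 500 bp before the start, where V1R signal was 0.04 and −0.04. V1R signal was 0.30 and 0.34 in the first 500 bp after it. Olfactory receptors, another family of chemosensory receptors, had 0.065 in ethanol-fed and −0.014 in carbohydrate-fed rats before the start at 6h, and 0.31 and 0.38 after it, so their step lay where that of the V1Rs did. At the other genes, leaving out olfactory receptors, the first 500 bp downstream had −0.09 at 6h and 0.02 at 1h in ethanol-fed rats, and −0.07 at 6h and 0.01 at 1h in carbohydrate-fed rats.

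**Figure D4:**
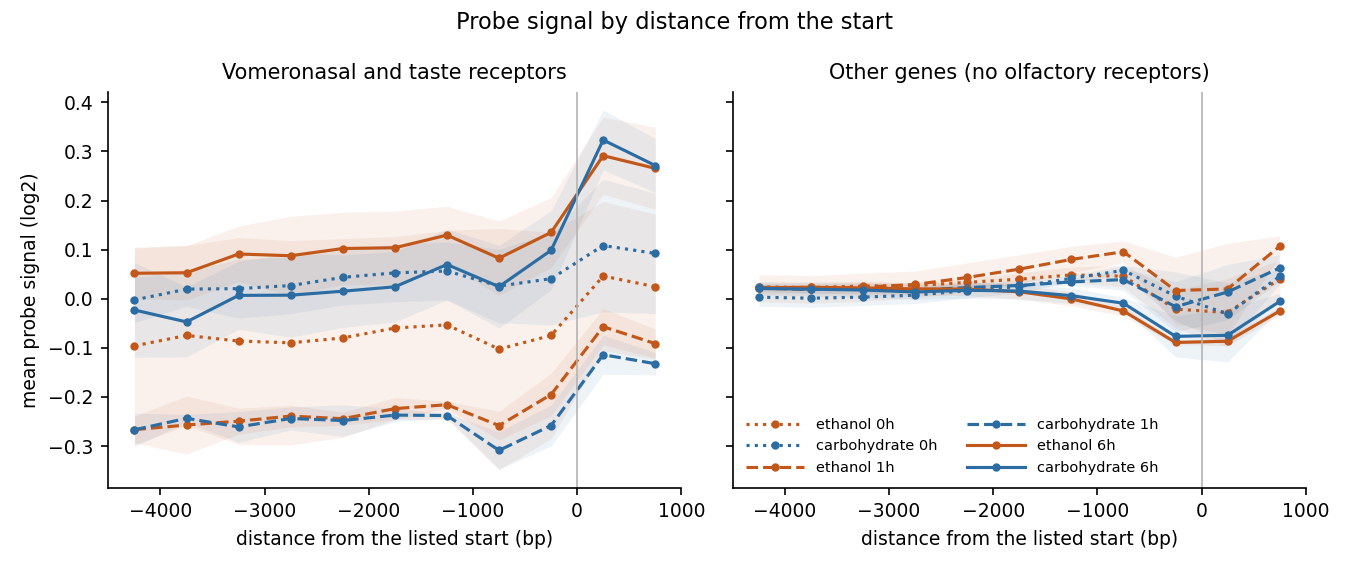
Mean probe signal (log2, vertical axis) in 500 bp steps of distance from the listed start (horizontal axis, negative upstream) for 182 receptor starts (left) and 13272 other starts (right); lines are group means over arrays and shading is ± 1 SD. At receptors the 6h lines (solid) lie above the 1h lines (dashed) at every distance, and all lines step up near the start; at other genes the lines lie between −0.09 and 0.11.

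Promoters of low GC content rose along with the receptors. With the promoters split into 10 equal parts by GC content, the lowest ran from 17.3% to 39.3%. Its 1008 promoters outside the vomeronasal and taste receptors had median differences, 6h minus 1h, of 0.31 in ethanol-fed and 0.27 in carbohydrate-fed rats. Of them 86.8% and 74.9% rose. These promoters still included olfactory receptors, whose 1000 windows had a median GC content of 35.3%. How much of these values came from olfactory receptors was not tested. The 40 V2R promoters in that range had medians of 0.42 and 0.40. In the next range, up to 46.3%, the medians were 0.16 and 0.11 for 1066 other promoters and 0.35 and 0.21 for 16 V2R promoters. In the 7 ranges from 51.5% upward the medians of the other promoters lay between −0.10 and −0.06 in ethanol-fed and between −0.06 and −0.04 in carbohydrate-fed rats. Of the 19 T2R promoters with a window, 12 lay in the lowest range and 5 in the next. The difference was thus higher in the ranges of low GC content and nearly level above them, and the part of GC content in the result for receptors was not tested.

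**Figure D5:**
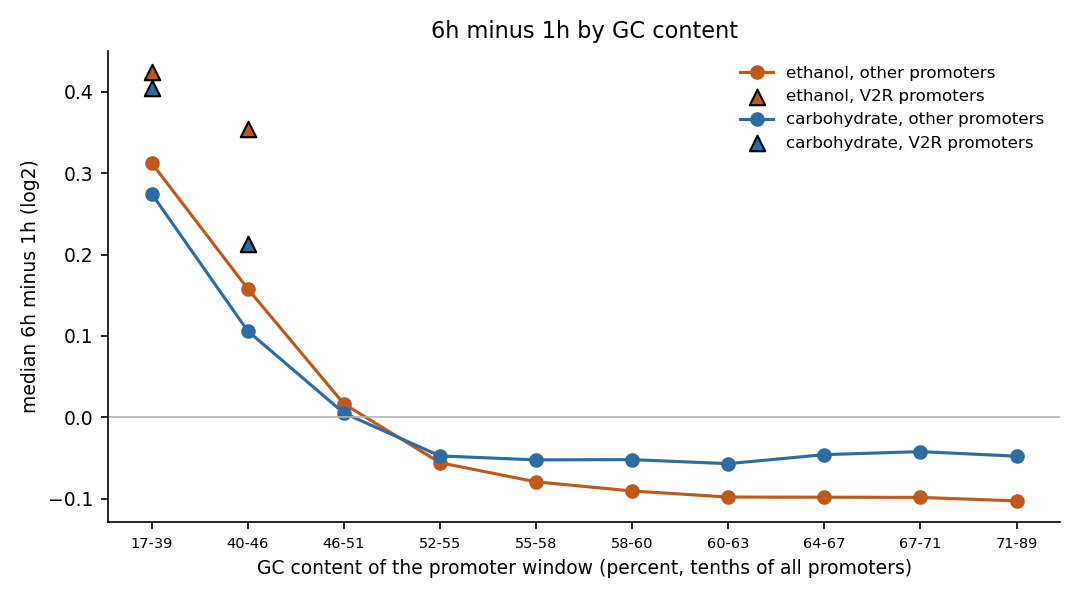
Median difference 6h minus 1h (log2, vertical axis) of promoters outside the vomeronasal and taste receptors, with olfactory receptors kept in. Promoters are in 10 equal parts by GC content of their RefSeq window (horizontal axis, lowest and highest GC percent of each). Triangles are V2R promoters where a part held at least 10. Medians are highest at the lowest GC content, at 0.31 in ethanol-fed and 0.27 in carbohydrate-fed rats, where the V2R medians are 0.42 and 0.40.

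Olfactory receptors, the largest other family of chemosensory receptors on the arrays, also rose in most cases. Between 6h and 1h, 1051 of their 1163 promoters rose in ethanol-fed rats and 0 fell, while in carbohydrate-fed rats 871 rose and 3 fell. Their median differences were 0.31 and 0.27, against 0.35 and 0.33 for the vomeronasal and taste receptors. No test was run of the difference between the families.

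Of a list of 24 other genes associated with vomeronasal, olfactory or taste cells, 19 had a tested promoter. Not all of them act with the receptors studied here. Between 6h and 1h, 1 rose and 7 fell in ethanol-fed rats, against 20.7% and 27.1% of all promoters, and 3 rose and 6 fell in carbohydrate-fed rats, against 18.6% and 17.9%, with median differences of −0.10 and −0.06. Rtp2, a chaperone that carries olfactory receptors to the cell surface, rose by 0.19 ± 0.06 in ethanol-fed and 0.20 ± 0.06 in carbohydrate-fed rats (SE; adjusted p = 0.0214 and 0.0196, limma). Gnat3, the taste G protein gustducin, rose in carbohydrate-fed rats (0.37 ± 0.13, adjusted p = 0.0310, limma), and so did Rtp1 (0.16 ± 0.06, adjusted p = 0.0382). Gnai2, the G protein of V1R neurons, which is also common in other cells, had differences of −0.33 ± 0.04 in ethanol-fed and −0.13 ± 0.04 in carbohydrate-fed rats and fell in both (SE; adjusted p = 5.59e-05 and 0.0248, limma). Omp, a marker of mature olfactory neurons, fell in both diets (−0.16 and −0.21), as did Gng8 (−0.22 and −0.22), a G protein subunit of vomeronasal neurons. Gnao1, the G protein of V2R neurons, had differences of 0.01 and −0.03, with adjusted p = 0.918 and 0.718.

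Against 0h, the samples of 1h were lower at most receptor promoters in carbohydrate-fed rats. There 143 of 178 fell and 1, Tas1r3, rose, against 21.1% of all promoters that fell and 14.1% that rose, and the median difference was −0.30. The arrays of 1h lay wholly below those of 0h at 148 receptor promoters, against 28.9% of all promoters. The falls named next are ranked among those of them that passed the threshold. The largest falls were at Vom2r22 (−0.57), Vom2r48 (−0.52), Vom2r11 (−0.52), the shared promoter of Vom2r17 and Vom2r18 (−0.51), V1rc19 (−0.50), V1rl1 (−0.49), V1re21 (−0.48), V1re27 (−0.46), Vom2r16 (−0.45) and Vom2r80 (−0.45). Without carbohydrate 0h replicate 3, 59 fell, and with a 500 bp window 22 fell and 0 rose. In ethanol-fed rats 16 fell and 1, again Tas1r3, rose, against 1.51% and 3.07% of all promoters, 4.58% together, with a median of −0.15. Among those whose arrays of 1h and 0h did not overlap, the largest falls were at Vom2r72 (−0.32), Vom2r50 (−0.31), Vom2r65 (−0.30) and Tas2r39 (−0.30). Next came Vom2r25 (−0.29), Vom2r36 (−0.27), Vom2r6 (−0.26), V1ra14 (−0.26), V1rg9 (−0.26) and Vom2r63 (−0.24).

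The ethanol count rested on single arrays. Without ethanol 0h replicate 2, 145 fell and 2 rose; without ethanol 1h replicate 1, 39 fell and 2 rose; and without ethanol 0h replicate 1 or 3, or ethanol 1h replicate 2 or 3, none passed. Ethanol 0h replicate 2 shared both its animal and its slide with ethanol 1h replicate 1, and there the 1h array was the higher at 134 of 178 receptor promoters, with a median difference of 0.07, against 56.4% of all promoters. The carbohydrate rat that gave both times, on different slides and runs, was higher at 1h at 19 of 178, with a median difference of −0.24, against 49.7% of all promoters. With array run as a term the median difference was 0.06 in ethanol-fed and 0.03 in carbohydrate-fed rats, and no receptor promoter passed. Run and time are nearly the same split here. No 1h or 6h array was in the run of the other 0h arrays, so this fit links 0h to later times through ethanol 0h replicate 2 alone. The fall against 0h did not hold in this fit, which cannot tell run from time for the other 0h arrays.

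At 6h against 0h, few receptor promoters rose. In ethanol-fed rats 15 rose and 0 fell, against 0.571% and 0.286% of all promoters (0.857% together), and in carbohydrate-fed rats 10 rose and 0 fell, against 4.49% and 5.58% (10.1% together). The median differences were 0.20 and 0.04. The rises named next are ranked among promoters past the threshold whose arrays of 6h and 0h did not overlap. The largest rises in ethanol-fed rats were all at V2Rs, namely Vom2r73 (0.59), Vom2r67 (0.40), Vom2r3 (0.39), Vom2r4 (0.37), Vom2r5 (0.37), Vom2r80 (0.36), Vom2r13 (0.36), Vom2r59 (0.35), Vom2r64 (0.33) and Vom2r6 (0.31), at adjusted p-values between 0.0486 and 0.0495. In carbohydrate-fed rats they included Vom2r5 (0.30), V1ra2 (0.29), Vom2r3 (0.29), V1rc6 (0.26), Vom2r6 (0.25), Tas1r3 (0.20), Vom2r35 (0.18), Vom2r34 (0.17) and Vom2r33 (0.16). The ethanol calls were close to the threshold. Without ethanol 0h replicate 3, 133 rose in ethanol-fed rats, and without any other single array of that comparison none did. In carbohydrate-fed rats none rose without 0h replicate 2, 2 without 0h replicate 1, 3 without 6h replicate 1 or 4, 6 without 6h replicate 3, 11 without 6h replicate 2 and 15 without 0h replicate 3.

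One rat of each diet gave both a 6h and a 0h array. In the ethanol-fed rat, 80 of 178 receptor promoters were higher at 6h, with a median difference of −0.02, and 41.9% of all promoters were. In the carbohydrate-fed rat 28 of 178 were higher, with a median difference of −0.12, against 42.5% of all promoters. With array run as a term, 158 receptor promoters rose in ethanol-fed and 57 in carbohydrate-fed rats. The share of all promoters that rose in that fit is not given here, so these counts are not set apart from it. That fit too links the 0h arrays to 6h through ethanol 0h replicate 2 alone. The relation of 6h to 0h thus changed with the arrays and with the model.

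Diet made no difference that passed the test at any time with 6 group means and no further term. Ethanol against carbohydrate gave 0 receptor promoters at 0h, at 1h and at 6h, where 0% of all promoters passed by limma, and 9, 9 and 4 receptor promoters at an unadjusted p under 0.05, against 790, 2379 and 644 of all 13305 promoters. The median difference, ethanol minus carbohydrate, was −0.11 at 0h, 0.03 at 1h and 0.05 at 6h. At 0h it ranged from −0.20 to 0.01 when single arrays were left out, and was 0.01 without ethanol 0h replicate 2. The smallest p-values at 0h were at Tas2r107 (−0.21 ± 0.08) and V1re7 (−0.25 ± 0.10; SE, adjusted p = 0.696 each, limma). At 1h they were at Vom2r64 (−0.28 ± 0.07, adjusted p = 0.0752, limma) and V1ra12 (−0.17 ± 0.05, adjusted p = 0.102). Both passed with array run as a term (adjusted p = 0.0104 and 0.0122, limma) and with the slide as a random block (0.0172 and 0.0194). Vom2r64 also passed without carbohydrate 1h replicate 3 (0.0318) or ethanol 1h replicate 1 (0.0437). Neither gene passed with a 500 bp window (0.674 and 0.692, limma) or quantile normalization (0.242 and 0.204). The same held with the compared arrays alone (0.459 each) and with arrays of 1 run (0.155 and 0.193). At 6h they were at Vom2r44 (0.14 ± 0.05) and Tas2r38 (0.10 ± 0.04), with adjusted p = 0.942 each.

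At Vom2r64 the ethanol arrays of 1h had −0.23, −0.28 and −0.12 and the carbohydrate arrays 0.17, 0.12 and −0.09, with all ethanol arrays below all carbohydrate arrays, as at 4.4% of all promoters. On slides that held both diets at 1h, the ethanol array was the higher at 116, 96 and 97 of 178 receptor promoters, while it was the higher at 59.5%, 60.4% and 51.4% of all promoters. At 6h ethanol replicate 4 was the higher at 96 and at 71 of 178 against the carbohydrate arrays of its slide, replicates 3 and 4. Of all promoters it was the higher at 53.2% and 53.8%. With array run as a term 7 receptor promoters were lower and 1 higher in ethanol-fed rats at 1h, with the slide as a random block 5 were lower, and in the largest run alone 12 were higher at 6h. The shares of all promoters in these fits are not given here.

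The change over time was not shown to differ by diet either. For 6h minus 1h the difference between the diets passed at 0 of 178 receptor promoters and 0% of all promoters by limma. The unadjusted p was under 0.05 at 12 receptor promoters and 1614 of all, and the median for receptors was 0.01. The smallest p-values were at V1ra12 (0.24 ± 0.07) and Vom2r63 (0.31 ± 0.09), with adjusted p = 0.252 each (SE, limma). For 1h minus 0h it passed at 0 of 178 and 0% of all by limma. The unadjusted p was under 0.05 at 16 receptor promoters and 2610 of all, and the median for receptors was 0.14. The smallest p-values there were at Vom2r56 (−0.29 ± 0.11, adjusted p = 0.157) and Tas2r125 (0.31 ± 0.12, adjusted p = 0.176). With array run as a term 4 receptor promoters had a larger 6h minus 1h change in ethanol-fed rats, and in the largest run alone 10 did.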

How the data were processed

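Binding of p65 was measured by chromatin immunoprecipitation on 20 two-colour promoter tiling arrays. The authors deposited a log2 ratio of the 2 channels for each of 713735 probes, with centring, direction and genome build not given in the sources used here. Per the file headers, the authors' peak lists, 1 per array, give each peak a score and an FDR, here up to 0.19961, and the nearest start. Per the labels, Cy5 held the precipitated DNA. On every array at least 99.9% of listed peaks lay at negative deposited values, so all values were multiplied by −1, then centred on each array's median probe. Of the samples' labels, titles gave the groups, since the source names all read 0h.

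A tiled promoter was a stretch of probes without a gap over 1000 bp. Each listed start was assigned to the stretch that held it, or else to the nearest within 5000 bp. The value of a promoter was the mean over its probes within 5000 bp of a start. The 13305 promoters were fitted in limma 3.58.1 (R 4.3.3; lmFit, contrasts.fit, eBayes with trend) with 6 group means over all 20 arrays. Tests were two-sided and adjusted by Benjamini-Hochberg over all promoters at 0.05, with standard errors from the moderated fit. The fit was tested on simulated data. The number of arrays limits precision.

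The 0h and later arrays of 4 animals come from the same rats, which the fit does not use. The members, the list of 24 associated genes and the tests were chosen with earlier results of these data known. Named genes were, per comparison, the 10 largest differences in each direction among receptors past the threshold whose groups did not overlap, the receptors with a peak on the most arrays (8 with ties), Tas1r genes, and, where none passed, the 2 smallest p-values. Alternatives were a 500 bp window, equal spread, quantile normalization, run as a term, and slide or animal as a random block. Others were a replicate block, at least 20 probes, the compared arrays alone, arrays of 1 run, and each array left out. The window was the 500 bp stretch of each promoter with the highest mean signal over all arrays, so it was chosen on the tested values. The animal block was added after seeing the data. Promoter sequences are from RefSeq, build GRCr8.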

Additional observations from a re-analysis of the deposited data

Results flagged for a closer look

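In groups of 4 arrays, 106 sets of values, at 50 named promoters and for 3 summary measures per array in both diets, were examined for an array far from the other 3 (Dixon's ratio of gap to range at its 95% critical value), and 6 stood apart. Chance gives about 1 such group in 20. In ethanol-fed rats at 6h, Vom2r64 had 0.43 on replicate 2, Tas2r107 had 0.33 on replicate 3 and Tas1r1 had 0.0098 on replicate 3, each above the other arrays. In carbohydrate-fed rats at 6h, Vom2r4 had 0.22 on replicate 2, below the others, while Vom2r11 had 0.077 and V1re27 had 0.26 on replicate 1, both above the others. Carbohydrate 6h replicate 1 is the array that forms a run of its own.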

How the results depend on the processing

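Counts under the alternatives, here and above, cover receptor promoters only, and the shares of all promoters under them are not given. The number of receptor promoters that differed between 6h and 1h was 172 in ethanol-fed and 157 in carbohydrate-fed rats. It fell to 98 in ethanol-fed rats with a 500 bp window, and lay within 1.5 times of these numbers under every other alternative run, from 157 to 172 and from 132 to 157 when single arrays were left out. At 1h against 0h in ethanol-fed rats the number was 17, against 0 with a 500 bp window, with run as a term or with the compared arrays alone, 4 with the slide as a random block, 35 with equal spread, 30 with quantile normalization, and 0 to 147 with single arrays left out. In carbohydrate-fed rats it was 144, against 22 with a 500 bp window, 0 with run as a term and 60 to 143 with single arrays left out. At 6h against 0h in ethanol-fed rats it was 15, against 8 with a 500 bp window, 38 with equal spread, 60 with quantile normalization, 158 with run as a term, 0 with the slide as a random block or the compared arrays alone, and 0 to 133 with single arrays left out. In carbohydrate-fed rats it was 10, against 63 with a 500 bp window, 6 with equal spread, 57 with run as a term, 24 with the compared arrays alone, and 0 to 15 with single arrays left out. Ethanol against carbohydrate at 1h went from 0 to 8 with run as a term, 5 with the slide as a random block and 0 to 4 with single arrays left out, and at 6h to 12 with the arrays of 1 run. The difference between diets in the 6h minus 1h change went from 0 to 4 with run as a term, 10 with the arrays of 1 run and 0 to 5 with single arrays left out, and that in the 1h minus 0h change to 0 to 3 with single arrays left out.

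With run as a term, the median difference 1h minus 0h turned to 0.058 in ethanol-fed and 0.035 in carbohydrate-fed rats. In carbohydrate-fed rats so did the differences of Vom2r48 (0.060), Vom2r11 (0.00012), V1rc19 (0.10), V1re21 (0.042) and V1re27 (0.026), and the 6h minus 0h difference of Tas1r3 turned to −0.041. That fit links the 0h arrays to later times through ethanol 0h replicate 2 alone, and the cause of these changes was not tested. Replicate numbers did not pair the arrays over all groups, since deviations of same-numbered arrays correlated by 0.053 on average (from −0.38 to 0.65 over 46 pairs). At 1h, same-numbered arrays of the diets shared a slide, with correlations from −0.069 to 0.56 over 3 pairs. There a replicate block gave 0 and the slide as a random block 5 receptor promoters for ethanol against carbohydrate. A replicate block gave 172 and 156 receptor promoters for 6h against 1h, and 29 for 6h against 0h in ethanol-fed rats.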
